A study of Homo sapiens with 12 samples.

Results

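The keratin genes of ductal and basal epithelial cells were followed through the H3K27ac landscapes of BxPC3, Panc327 and SUIT2, untreated human cell lines of pancreatic ductal adenocarcinoma. They are 10 genes, KRT7, KRT8, KRT18 and KRT19 of simple, ductal epithelium and KRT5, KRT6A, KRT6B, KRT14, KRT16 and KRT17 of basal or activated squamous epithelium. Every called peak that overlapped 1 of 5 windows around these genes was taken, which gave 123 of 190767 peaks over 6 peak lists. Merging peaks that shared at least 1 bp gave 32 keratin regions of 58994 regions in the whole series. H3K27ac, the acetylation of lysine 27 of histone H3 that marks active enhancers and promoters, was measured by ChIP-seq, with 2 H3K27ac libraries and 2 input libraries for each line. All cells were grown under the same standard conditions without treatment, and each group is a single cell line, so a difference below is one between these lines. The labels do not state whether the replicates of a line came from separate cultures, and the spread between them may be technical.

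Keratins form the intermediate filaments of epithelial cells, and each filament pairs a type I with a type II keratin. KRT8 with KRT18, joined by KRT7 and KRT19, are the keratins of simple epithelia such as pancreatic ducts, where KRT19 and KRT7 are used as duct markers. KRT5 with KRT14 mark the basal layer of stratified epithelia, while KRT6A, KRT6B, KRT16 and KRT17 are induced in wounded and hyperproliferative epithelium. Basal keratins in pancreatic tumours are known as part of a basal-like or squamous programme. The type II genes lie in a cluster on chromosome 12, which also holds the type I gene KRT18, and the other type I genes lie in a cluster on chromosome 17.

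The windows, on the hg19 build of the peak lists, were chromosome 12 from 52600000 to 52660000 for KRT7, from 52820000 to 52930000 for KRT6B, KRT6A and KRT5, and from 53280000 to 53360000 for KRT8 and KRT18. On chromosome 17 they ran from 39660000 to 39700000 for KRT19 and from 39730000 to 39800000 for KRT14, KRT16 and KRT17. No hg19 gene annotation was used here, so a peak is placed in a window and not at an exon, intron or promoter of a particular gene, and within the windows of several genes it was not determined which gene a peak lies at. By gene order alone, in the RefSeq table of another build (GRCh38.p14), KRT7 lies between KRT80 and KRT86, KRT6A and KRT6B lie to either side of KRT6C, KRT8 and KRT18 are neighbours between KRT78 and EIF4B, and KRT19 lies between KRT15 and KRT9. KRT14, KRT16 and KRT17 follow each other between KRT9 and EIF1.

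Of the 10 genes, 2 had a promoter in the RefSeq sequence table, and they happen to stand for the contrast that the peaks draw: KRT5 of the basal group and KRT8 of the simple epithelial group. The 250 bases before each start are shown 5′ to 3′ on the gene's strand, with matches to searched motifs in capitals. Their positions are GRCh38.p14, chr12:52520395-52520644 for KRT5 and chr12:52926470-52926719 for KRT8, both on the minus strand, and are not comparable with the hg19 positions of the peaks. The KRT8 sequence belongs to the start that the table gives, which need not be the start these cells use.
KRT5: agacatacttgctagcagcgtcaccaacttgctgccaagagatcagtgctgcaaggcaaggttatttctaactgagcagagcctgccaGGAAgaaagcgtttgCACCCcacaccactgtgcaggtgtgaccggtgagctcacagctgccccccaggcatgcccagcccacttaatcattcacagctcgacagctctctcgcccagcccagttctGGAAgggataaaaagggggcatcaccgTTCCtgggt
KRT8: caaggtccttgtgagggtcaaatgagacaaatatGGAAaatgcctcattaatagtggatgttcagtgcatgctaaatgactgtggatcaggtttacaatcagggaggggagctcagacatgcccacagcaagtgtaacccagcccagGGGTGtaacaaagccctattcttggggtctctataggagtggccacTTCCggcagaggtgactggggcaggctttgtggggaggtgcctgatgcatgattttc
The motifs searched, on both strands, were the AP-1 motif TGANTCA, the GC box GGGCGG, the CCAAT box, the TATA box as TATAAA, the KLF motif CACCC and the ETS core GGAA, and no match overlapped another. KRT5 held CACCC at −147 and GGAA at −162, −36 and, on the other strand, −9. KRT8 held CACCC on the other strand at −103, and GGAA at −216 and, on the other strand, −57. Positions are those of the leftmost capital letter, with −1 the base before the start. Both motifs are common: of 35116 RefSeq promoters of the same length, 54.7% held CACCC and 92.7% held GGAA. Neither sequence held the AP-1 letters (6.57% of promoters), the GC box (42.6%), CCAAT (32.0%) or TATAAA (10.7%). These matches describe the letters only.

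The simple and the basal keratin windows differed in which lines carried called H3K27ac. All 6 libraries had peaks in the KRT7, KRT8-KRT18 and KRT19 windows, as had 19.2% of 60-kb tiles, 23.2% of 80-kb tiles and 14.3% of 40-kb tiles of the genome, the lengths of those windows. BxPC3 and Panc327 also had peaks in the KRT6B-KRT6A-KRT5 and KRT14-KRT16-KRT17 windows, in both libraries of each line. Neither SUIT2 library had a called peak in either basal window. Across the genome, 514 of 27579 non-overlapping tiles of 110 kb (1.86%) had a peak in all 4 BxPC3 and Panc327 libraries and none in SUIT2, the pattern of the KRT6B-KRT6A-KRT5 window. The same pattern was found in 756 of 43330 tiles of 70 kb (1.74%), the length of the KRT14-KRT16-KRT17 window. Windows with no SUIT2 peak are in themselves common, since 58.5% of the 110-kb tiles and 66.4% of the 70-kb tiles had none. Lists hold only called peaks, so an empty window means no signal past the caller's threshold and not an absence of H3K27ac.

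**Figure D1:**
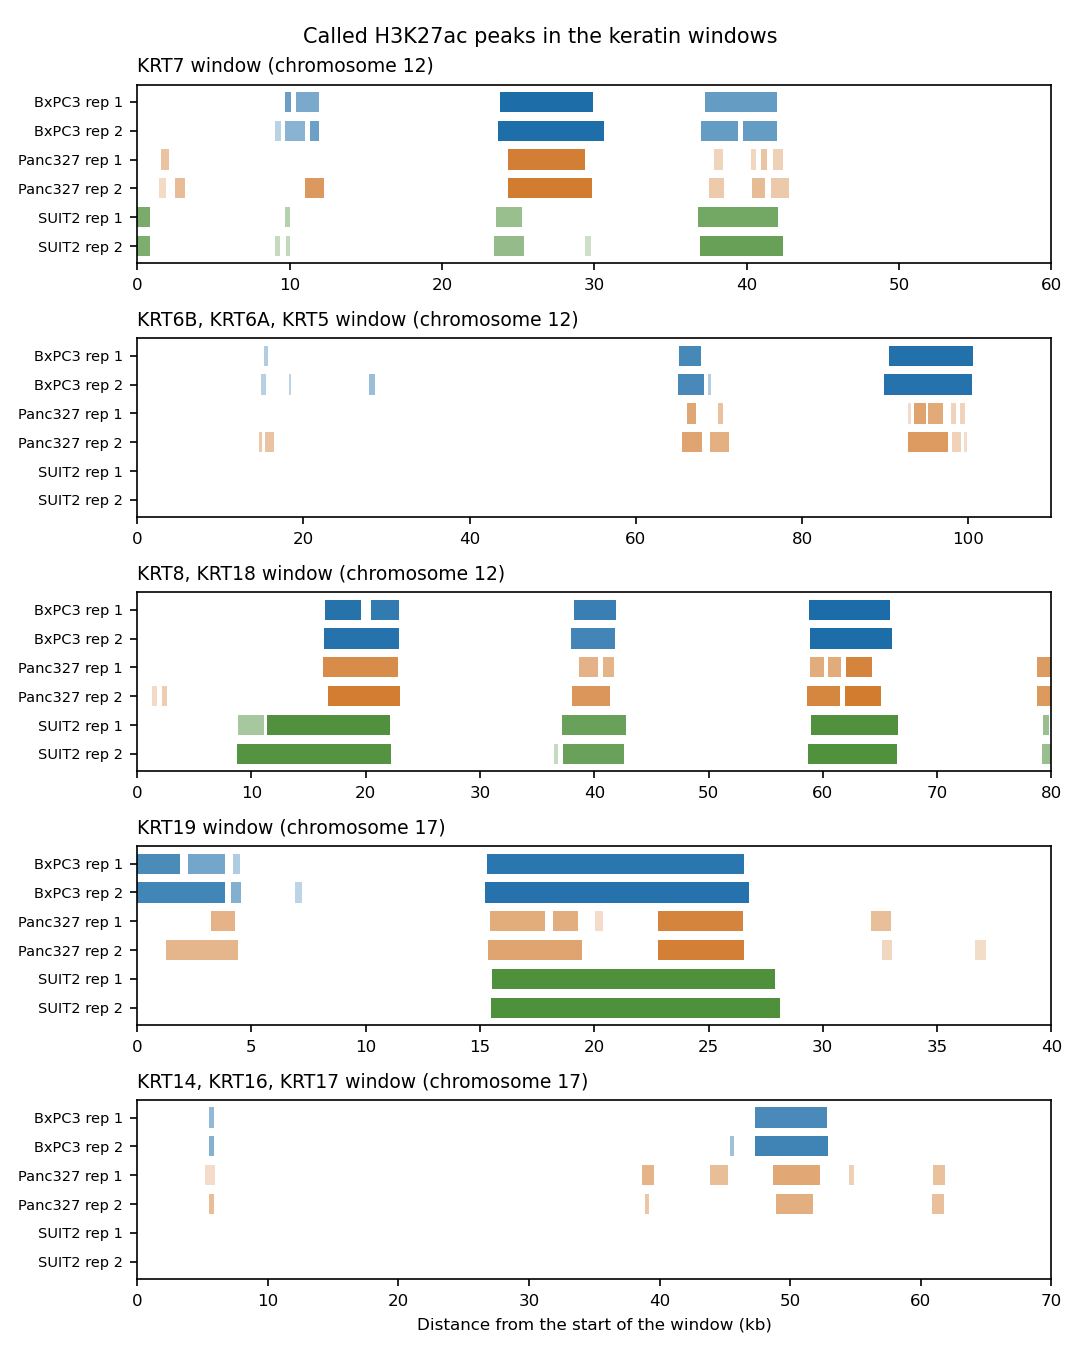
Called H3K27ac peaks in each keratin window, 1 row per library, with the distance from the start of the window in kb on the horizontal axis. Bars span the peaks, clipped to the window, and darker bars had a higher −log10 q percentile in their own list. The SUIT2 rows are empty in the KRT6B, KRT6A, KRT5 and the KRT14, KRT16, KRT17 windows and filled in the other 3.

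The whole lists held 27776 to 38335 peaks. They covered 48.7 and 54.6 Mb of the genome for BxPC3, with 34.1 and 46.3 Mb for Panc327 and 60.1 and 63.3 Mb for SUIT2. Read depth was not given in the lists. A genome-wide background, as an expected pile-up in reads, was recovered from them. This background was 1.46 and 2.85 in Panc327 and 3.29 and 3.61 in SUIT2, all with a fitted pile-up scale of 1. In BxPC3 it was 1.96 and 2.37 on fitted scales of 0.752 and 0.652, so BxPC3 was not ranked against the other lines. Fold over background, the authors' ratio for each peak, differed widely between the Panc327 replicates at the same peaks, so peak strength is compared here by percentile: the share of peaks of the same list with a −log10 q at or below that of the peak. Cells were profiled in bulk, so fewer cells with the mark and less of the mark per cell cannot be told apart.

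Among the simple keratins, the KRT19 window carried the densest called H3K27ac of the 5 windows in BxPC3 and Panc327. Peaks covered 15.03 and 16.12 kb of the 40-kb KRT19 window in BxPC3, 9.46 and 11.97 kb in Panc327, and 12.4 and 12.7 kb in SUIT2. Over the whole window the BxPC3 libraries covered most, and the Panc327 libraries least, with no overlap between the lines. This order did not hold in the largest region, described next, where SUIT2 covered most. The means were 15.6 ± 0.765 kb in BxPC3, 10.7 ± 1.77 kb in Panc327 and 12.5 ± 0.211 kb in SUIT2 (SD, n = 2 each). Lines held 86.5% of the variance between libraries (exact permutation test over the 15 ways of splitting 6 libraries into pairs, one-sided p = 0.0667, adjusted over the 5 windows p = 0.167). That p is the smallest these splits can give, so no window could pass a threshold of 0.05. Between 0.108 and 0.743% of all 40-kb tiles of the genome, depending on the library, held at least as many covered bases in the same list.

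A single large region, from 39675214 to 39688142, held most of the covered bases in every library. In SUIT2 it was called as 1 unbroken peak of 12.4 and 12.7 kb. BxPC3 also had 1 peak there in each library, of 11.2 and 11.5 kb, whereas Panc327 had 4 and 2 peaks that together covered 7.58 and 7.90 kb. In this region SUIT2 thus covered more than BxPC3, and the larger BxPC3 total of the window came from bases outside it. The position of the strongest signal was shared: the summits of the strongest peak lay within 284 bp of each other across all 6 libraries, from 39684078 to 39684362. That peak stood at percentiles 91.2 and 94.1 in BxPC3, 88.7 and 93.8 in Panc327, whereas SUIT2 had it at 98.4 and 98.7. SUIT2 thus ranked this peak of the KRT19 window higher in its own lists than either other line did in theirs. The ranking held 77.5% of its variance between lines (exact permutation test, one-sided p = 0.133, adjusted p = 0.133).

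A second KRT19-window region, from 39656408 to 39664521 and so in part before the window, was called in BxPC3 and Panc327 and in neither SUIT2 library. Its peaks covered 7.11 and 7.69 kb in BxPC3 and 1.02 and 3.15 kb in Panc327. It was the only region of a simple keratin window missing from SUIT2 in this way. In the gene order, KRT15, a basal keratin, comes before KRT19, and KRT9, a keratin of palm and sole skin, comes after it. The region lies at the start of the window, which is the KRT15 side in that order. Which gene it lies at was not determined, and it may be one beyond KRT15. A smaller region, from 39692122 to 39693036, was marked in Panc327 alone, with 0.857 and 0.456 kb.

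KRT8 and KRT18, the pair that forms the filament of simple epithelia, lay in the keratin window where SUIT2 had the most bases covered by peaks. Peaks covered 16.4 and 17.6 kb of the 80-kb window in BxPC3, 15.02 and 17.83 kb in Panc327, and 26.8 and 27.7 kb in SUIT2. Both SUIT2 libraries lay above all 4 others, while the BxPC3 and Panc327 libraries overlapped. BxPC3 averaged 17.003 ± 0.867 kb, Panc327 16.4 ± 1.98 kb and SUIT2 27.3 ± 0.648 kb (SD, n = 2 each). The difference between BxPC3 and SUIT2 was −10.3 kb and that between Panc327 and SUIT2 −10.9 kb (exact permutation test, two-sided p = 0.333 for each, the smallest that 2 libraries against 2 can give). Lines held 96.7% of the variance (exact permutation test over the 15 splits, one-sided p = 0.2, adjusted p = 0.2). SUIT2 lists covered more of the genome as a whole as well, and the part of that in the KRT8-KRT18 difference was not tested.

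The extra SUIT2 bases were mostly at one end of a single region. The region from 53288754 to 53303014 held 13.1 and 13.4 kb of peaks in SUIT2. BxPC3 covered 5.66 and 6.601 kb of it and Panc327 6.57 and 6.32 kb. SUIT2 peaks there began 7.41 to 7.94 kb nearer to the window start than those of the other lines, while the other ends lay within 0.871 kb of each other in all 6 libraries. In the whole window, 8.99 kb were covered in both SUIT2 libraries and in no other, 0 kb in BxPC3 alone and 0.444 kb in Panc327 alone. A core of 11.4 kb was covered in all 6 libraries.

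The highest peak of the KRT8-KRT18 window lay elsewhere, in a region from 53338608 to 53346556 that all lines shared. Its peaks covered 7.05 and 7.12 kb in BxPC3, 4.65 and 6.12 kb in Panc327 and 7.61 and 7.78 kb in SUIT2. Its strongest peak stood at percentiles 99.8 and 99.4 in BxPC3, 88.9 and 97.0 in Panc327, with SUIT2 at 97.5 and 97.8. Its summits fell within 278 bp over the 6 libraries and within 8 bp between the BxPC3 libraries. In this ranking BxPC3 was highest, and the 2 Panc327 libraries lay below the others (58.4% of the variance between lines, exact permutation test, one-sided p = 0.0667, adjusted p = 0.0833). By the authors' fold the order was another: the fold was 95.6 and 97.8 in BxPC3, 106.0 and 28.2 in Panc327, and highest in SUIT2 at 126.8 and 129.7 (55.2% of the variance between lines, exact permutation test, one-sided p = 0.333). For the percentile the share was 97.4% without Panc327 replicate 1 and 99.8% without Panc327 replicate 2. Another shared region, from 53317188 to 53322780, covered 3.68 and 3.89 kb in BxPC3, 2.58 and 3.27 kb in Panc327 and 5.59 and 5.37 kb in SUIT2. The last region of the window, from 53358724 to 53360144, reversed the usual pattern. It was called in both Panc327 libraries, with 1.33 and 1.42 kb, and in both SUIT2 libraries, with 0.564 and 0.818 kb, but in neither BxPC3 library.

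**Figure D2:**
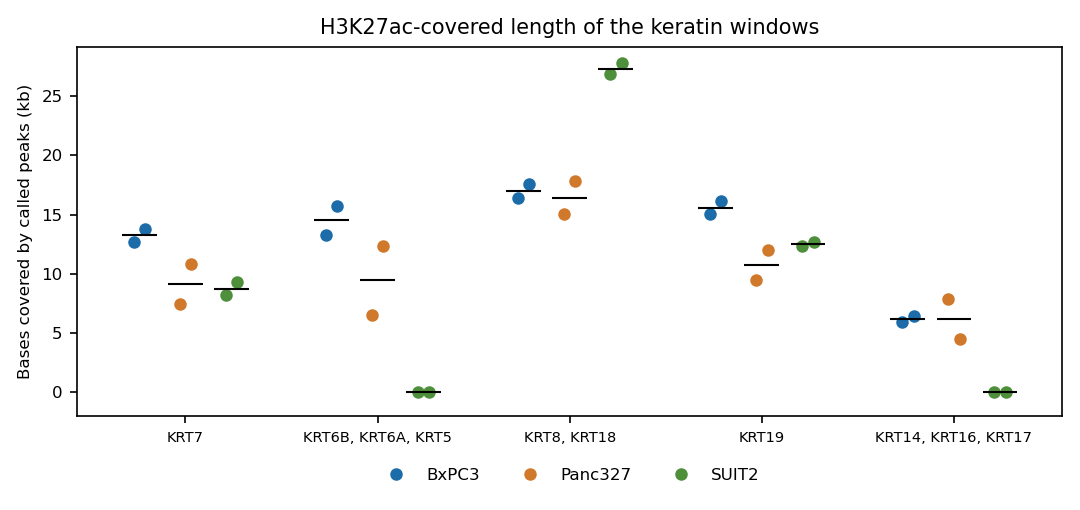
Bases covered by called peaks in each keratin window, in kb, with 1 point per library and a bar at the mean of the 2 libraries of a line. SUIT2 lies highest in the KRT8, KRT18 window, at 26.8 and 27.7 kb, and at 0 in both basal windows.

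The window of KRT7, the type II keratin of ducts, had called H3K27ac peaks in all lines but with a different internal arrangement in SUIT2. Peaks covered 12.7 and 13.8 kb of the 60-kb window in BxPC3, 7.47 and 10.8 kb in Panc327, and 8.18 and 9.28 kb in SUIT2. BxPC3 lay above the other lines, and the Panc327 and SUIT2 libraries overlapped. Means were 13.3 ± 0.788 kb in BxPC3, 9.15 ± 2.38 kb in Panc327 and 8.73 ± 0.778 kb in SUIT2 (SD, n = 2 each), and lines held 78.3% of the variance (exact permutation test, one-sided p = 0.2, adjusted p = 0.2). The low SUIT2 mean depended on the window's limits. With the window extended by 10 kb, the means were 14.7 kb in BxPC3, 10.2 kb in Panc327 and 13.6 kb in SUIT2.

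The strongest peak of the KRT7 window was not the same one in every line, and which of its peaks lies at KRT7 itself was not determined. In BxPC3 and Panc327 it lay in a first region from 52623404 to 52630634, with widths of 6.09 and 6.93 kb in BxPC3 and 5.03 and 5.50 kb in Panc327. Its summits fell between 52627239 and 52627397 in those 4 libraries. SUIT2 had only a short peak at the near edge of that region, 1.76 and 1.97 kb wide, ending at 52625289 and 52625374, before those summits, and replicate 2 had a further peak of 0.394 kb. The SUIT2 maximum was in a second region, 6.19 kb farther on, from 52636824 to 52642802. There the SUIT2 peaks were 5.21 and 5.47 kb wide, against 4.71 and 4.64 kb covered in BxPC3 and 1.91 and 3.02 kb in Panc327.

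The ranks of both KRT7 regions turned over between the lines. The first region reached percentiles 99.6 and 98.4 in BxPC3, 94.6 and 97.3 in Panc327, but SUIT2 had it at 42.7 and 46.6. The second region reached 56.5 and 56.8 in BxPC3, 23.9 and 33.8 in Panc327, and SUIT2 had it at 71.4 and 79.5. The first region therefore stood 43.1 and 41.6 percentage points above the second in BxPC3, and 70.7 and 63.6 above it in Panc327. In SUIT2 the same difference, first minus second, was −28.7 and −32.9. This contrast was chosen after the values were seen and was not tested. For the strongest KRT7 peak wherever it lay, lines held 94.6% of the variance in percentile (exact permutation test, one-sided p = 0.0667, adjusted p = 0.0833). By the authors' fold in place of the percentile they held 24.4% (exact permutation test, one-sided p = 0.733), since the fold of that peak was 133.9 in Panc327 replicate 1 and 37.8 in replicate 2.

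**Figure D3:**
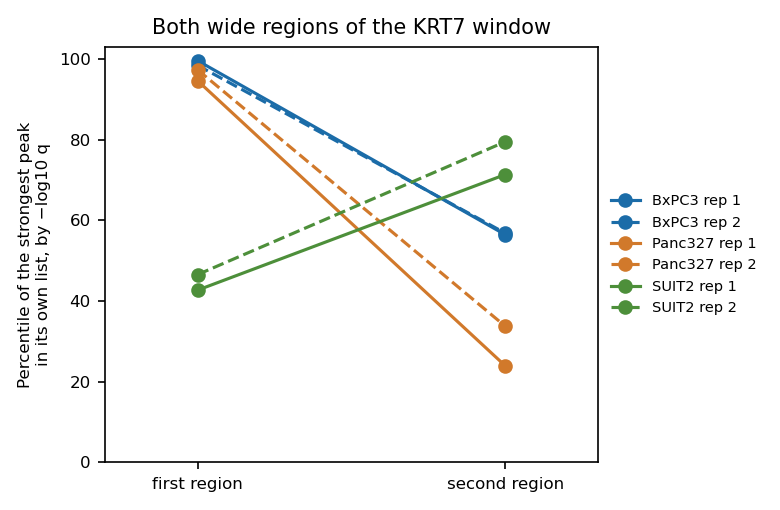
Percentile of the strongest peak, by −log10 q in its own list, in the first and second wide region of the KRT7 window, 1 line per library. The SUIT2 lines climb to 71.4 and 79.5 in the second region, and those of BxPC3 and Panc327 descend to it.

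Bases shared between lists were compared as well, from these same peaks. In the KRT7 window the Jaccard index (bases covered by both lists, divided by bases covered by at least 1) was 0.823 for the BxPC3 pair, 0.622 for the Panc327 pair and 0.841 for the SUIT2 pair. Between lines its median was 0.493 for BxPC3 with Panc327, 0.458 for BxPC3 with SUIT2 and 0.208 for Panc327 with SUIT2 (4 pairs each). The ranges of BxPC3 with Panc327 (0.444 to 0.573) and of BxPC3 with SUIT2 (0.426 to 0.462) overlapped, so the index did not set SUIT2 apart from BxPC3. Panc327 and SUIT2 thus covered overlapping lengths of this window but largely different bases. A shorter KRT7 region, from 52609685 to 52612279, was called in both BxPC3 libraries (1.89 and 1.90 kb) and in Panc327 replicate 2 (1.27 kb), and reached 0.353 and 0.296 kb in SUIT2. The region at the window's edge, from 52596007 to 52600856, covered 4.85 and 4.74 kb in SUIT2, against 1.45 and 1.45 kb in BxPC3 and 0.915 and 0.561 kb in Panc327, and only the SUIT2 peaks reached into the window. One small region, from 52601447 to 52602115, was marked in Panc327 alone.

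The basal keratin genes KRT6B, KRT6A and KRT5 lay in a window with called H3K27ac peaks in BxPC3 and Panc327 but not in SUIT2. Peaks covered 13.3 and 15.7 kb of the 110-kb window in BxPC3, 6.57 and 12.3 kb in Panc327, and 0 and 0 kb in SUIT2. Both BxPC3 libraries lay above both Panc327 libraries. Means were 14.5 ± 1.74 kb in BxPC3 and 9.44 ± 4.07 kb in Panc327 (SD, n = 2 each), with 91.7% of the variance between lines (exact permutation test, one-sided p = 0.0667, adjusted p = 0.167). The strongest peak stood at percentiles 95.7 and 94.4 in BxPC3 and 58.0 and 65.7 in Panc327, and SUIT2 counts as 0 (99.7% of the variance between lines, exact permutation test, one-sided p = 0.0667, adjusted p = 0.0833). Tiles of 110 kb that were empty in SUIT2 and held peaks in all 4 other libraries were also compared by covered bases. Of all 27579 tiles, 10 (0.0363%) were of this kind and covered at least as many bases in both BxPC3 libraries as this window's lower one. These limits are the window's own values, so the share is a description only.

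BxPC3 had a single broad peak in this window. In replicate 1 it ran from 52910456 to 52920552 (10.1 kb), and in replicate 2 it started at 52909833 and ended at 52920450 (10.6 kb). By width it ranked 57 and 59 in lists of 34113 and 38335 peaks. The authors' fold at its strongest point was 53.1 and 52.2. Panc327 had 5 and 3 separate peaks over the same region, which covered 4.89 and 6.19 kb, with a highest fold of 32.9 and 14.9. A second region, from 52885055 to 52888236, was 2.70 and 3.18 kb in BxPC3 and 1.09 and 2.44 kb in Panc327, with summits 21 bp apart in BxPC3 and 3 bp apart in Panc327. Another, from 52888678 to 52891254, was called in both Panc327 libraries (0.588 and 2.28 kb) and in BxPC3 replicate 2 (0.425 kb). The last of the marked regions, from 52834611 to 52836442, was called in both BxPC3 libraries (0.493 and 0.572 kb) and in Panc327 replicate 2 (1.41 kb).

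The absence of SUIT2 peaks reached far beyond the window. No SUIT2 peak of either library lay between 52675798 and 53264164, a stretch of 588 kb that began 144 kb before the KRT6B-KRT6A-KRT5 window and ended 334 kb after it. The other lists held 14 and 17 peaks of BxPC3 and 14 and 13 peaks of Panc327 within it. The keratin window accounted for 54.3 and 56.7% of their covered bases in BxPC3 and 61.0 and 71.8% in Panc327. Of 32009 stretches between neighbouring SUIT2 peaks, 2 (0.00625%) held at least 13 peaks in each of the other 4 libraries. By regions marked in both other lines, of which this stretch held 4, there were 38 such stretches (0.119%). Both cutoffs are this stretch's own values, and the stretches compared were not matched for length. A longer stretch has more room for peaks, so these shares are descriptions only. SUIT2 peaks resumed at the far end, where the KRT8-KRT18 window begins 15.8 kb later. The lists give a background at called peaks only, so none could be had for SUIT2 in this stretch, and whether its DNA was present there in full was not tested.

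**Figure D4:**
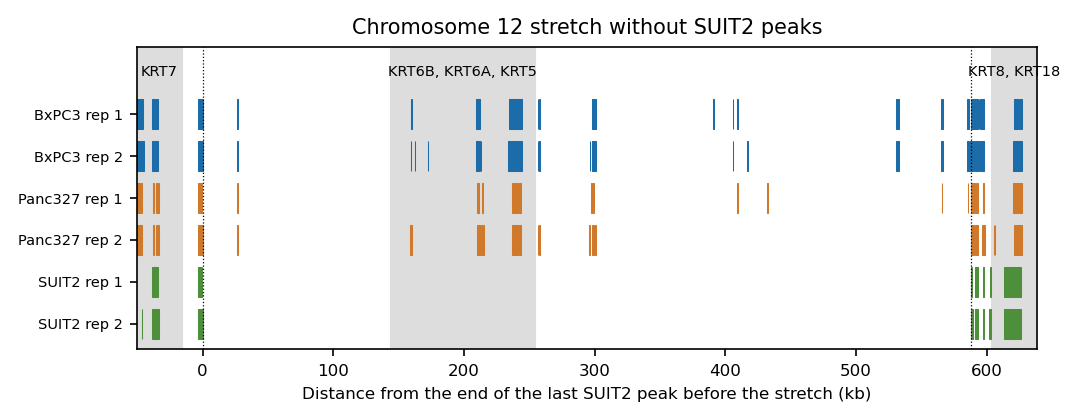
Peaks of all 6 libraries around the chromosome 12 stretch without SUIT2 peaks, with the distance from its start in kb on the horizontal axis. Dotted lines mark the ends of the 588-kb stretch and grey bands the keratin windows, of which KRT7 and KRT8, KRT18 are cut at the edges of the plot.

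The chromosome 17 basal window, of KRT14, KRT16 and KRT17, held peaks of BxPC3 and Panc327 that ranked lower in their lists than those of the other basal window. Peaks covered 5.94 and 6.42 kb of the 70-kb window in BxPC3, 7.87 and 4.49 kb in Panc327, and 0 and 0 kb in SUIT2. The BxPC3 libraries lay between the Panc327 libraries, so those lines overlapped. Means were 6.18 ± 0.334 kb in BxPC3 and 6.18 ± 2.39 kb in Panc327 (SD, n = 2 each), with 89.8% of the variance between lines (exact permutation test, one-sided p = 0.2, adjusted p = 0.2). The strongest peak stood at percentiles 72.5 and 78.6 in BxPC3 and 53.3 and 46.8 in Panc327 (99.3% of the variance with SUIT2 at 0, exact permutation test, one-sided p = 0.0667, adjusted p = 0.0833). BxPC3 thus ranked its peak higher in its lists than Panc327 did, while the covered lengths of these lines overlapped.

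The widest region of this window held most of its covered bases in both BxPC3 libraries and in Panc327 replicate 2, but not in Panc327 replicate 1. It ran from 39777287 to 39782927, with 5.50 and 5.64 kb in BxPC3 and 3.60 and 2.88 kb in Panc327. The summit was at the same base in both BxPC3 libraries, and over the 4 libraries the summits spanned 680 bp. A small region near the start of the window, from 39735227 to 39735928, was called in the same 4 libraries with 0.442 and 0.419 kb in BxPC3 and 0.702 and 0.397 kb in Panc327. Panc327 alone marked 2 regions here, from 39768693 to 39769596 (0.904 and 0.342 kb) and from 39790898 to 39791859 (0.915 and 0.875 kb). The peak-free stretch of SUIT2 was short, 91.8 kb, ending 3.97 kb after the window. It held 2 and 3 peaks of BxPC3 and 6 and 4 of Panc327. Stretches with at least 2 peaks in each of the other 4 libraries numbered 746 (2.33%), and those with at least 2 regions marked in both other lines, as here, 347 (1.08%). Of the 70-kb tiles, 0.162% had peaks in all 4 other libraries, none in SUIT2 and at least as many bases in both BxPC3 libraries as this window's lower one. The cutoffs for these stretches and tiles are again the values of the stretch and window themselves. The shares are descriptions only, and the stretches were not matched for length.

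**Figure D5:**
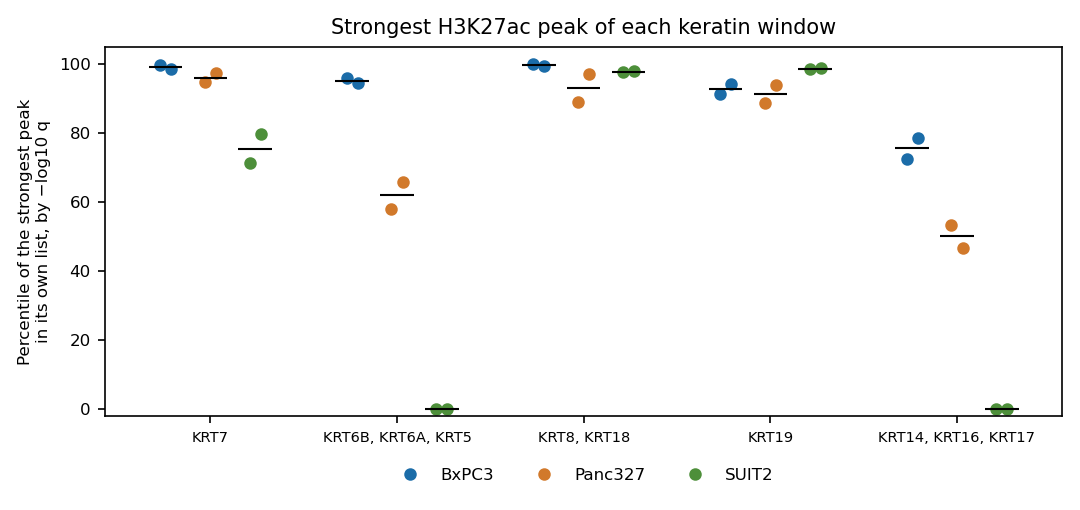
Percentile, by −log10 q in its own list, of the strongest peak in each keratin window, with 1 point per library and a bar at the mean of the 2 libraries of a line. A library with no peak is drawn at 0, as SUIT2 is in both basal windows, and SUIT2 also lies lowest for KRT7, at 71.4 and 79.5.

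Counted by region, no keratin region was marked in BxPC3 alone or in SUIT2 alone. A peak in a single library does not mark a region, and BxPC3 replicate 2 and SUIT2 replicate 2 each had such peaks. Of the 32 keratin regions, 20 (62.5%) were marked, meaning that both libraries of some line had a peak there, against 73.3% of all 58994 regions. BxPC3 marked 14 of the 32 (43.8%), against 49.7% of all regions. Panc327 marked 18 of the 32 (56.3%), against 33.7%, and SUIT2 marked 9 of the 32 (28.1%), against 45.6%. A peak in all 6 libraries was found in 7 keratin regions (21.9%), close to the 21.6% of all regions, and 6 of these 7 were in the KRT7 and KRT8-KRT18 windows. They include the region at the KRT7 window's edge, whose BxPC3 and Panc327 peaks lay just outside the window. BxPC3 alone marked 0, against 12.9% of all regions, and SUIT2 alone 0, against 13.0%. Panc327 alone marked 4 of the 32 (12.5%), against 5.79% of all regions. Regions marked in both other lines but missing from SUIT2 numbered 5 of the 32 (15.6%), against 3.82% of all regions. Of these 5, 4 were in the basal windows. Missing from BxPC3 was 1 of the 32 (3.1%), against 1.17% of all regions, and from Panc327 0, against 4.18%. Single libraries moved these small counts: Panc327 alone marked 8 without its replicate 1 and 7 without its replicate 2, BxPC3 alone marked 4 without its replicate 1 and 1 without Panc327 replicate 2, and SUIT2 alone marked 1 when either of its replicates was left out. Missing from Panc327 was 1 without BxPC3 replicate 1, BxPC3 replicate 2 or Panc327 replicate 2. Classes overlap, and regions of a window are neighbours and not independent.

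The local background at the keratin peaks, recovered from the fold and −log10 p, was 1 to 2.82 times the genome-wide level, with a median of 1.24 over 123 peaks. It was highest in the KRT8-KRT18 window of Panc327, where its median was 1.86, against 1.32 in BxPC3 and 1.23 in SUIT2. In the KRT6B-KRT6A-KRT5 window its median was 1.27 in BxPC3 and 1.48 in Panc327. In the KRT14-KRT16-KRT17 window it was 1 in both. The part of these differences in the called peaks was not tested. KRT6A and KRT6B, like KRT14, KRT16 and KRT17, have near-identical relatives in their own window or elsewhere, and KRT8 and KRT18 have many processed copies. How reads that map to several places were treated is not given in the sources used here, so values at such copies are uncertain.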

How the data were processed

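H3K27ac ChIP-seq was done on untreated cells of 3 lines, with 2 H3K27ac and 2 input libraries each. Per the labels' protocols, chromatin was fixed with paraformaldehyde and the KAPA HyperPrep kit served for library preparation. The build was hg19 and the tools were MACS2, Bowtie 1.1.1 and bcl2fastq 1.8.4, per the submitters' processing notes; MACS2 settings are not given in the sources used here.

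Peaks were deposited as 1 list per H3K27ac library, so they were called per library. The deposited fold is the authors' ratio of pile-up to local background per peak, used to describe peaks within a list. The deposited −log10 p-values and −log10 q-values are the authors', and all peaks had a −log10 p of at least 10.0. The deposited score was not used. Chromosomes 1 to 22 and X were kept.

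Covered bases and the strongest peak were taken per window with Python 3.11.15 and numpy 2.4.6. Peaks sharing at least 1 bp were merged, and bedtools 2.31.1 gave the same 58994 regions. Lines were compared by exact permutation over all 15 pairings of the 6 libraries, with Benjamini-Hochberg adjustment over 5 windows; the smallest p is 0.0667. Background was recovered by solving the fold and −log10 p for whole reads, assuming the usual MACS2 pseudocount and Poisson tail, within 0.001 of the −log10 p. Between 99.9 and 100% of a list's peaks were explained, with fitted pile-up scales of 0.752 and 0.652 in BxPC3. On data simulated with that same formula all 3000 backgrounds were recovered, which checks the solving step and not the assumed formula. This background is never below the genome-wide level, and lost DNA would not show.

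All 10 genes are named. Regions marked in at least 1 line are accounted for, and those with at least 2 kb in a library are given by position. The members and lists were chosen with earlier results of these data known. Gene names and order come from a GRCh38.p14 table, whose positions were not used for peaks. Alternatives tried were lists of equal length, a −log10 q of at least 20, windows extended by 10 kb, a cover of at least 50% of a region, merging within 1 kb, the fold in place of the percentile, replicate blocks and leaving out each library.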

Additional observations from a re-analysis of the deposited data

How the results depend on the processing

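None of the 100 alternatives run for covered length and strongest peak changed the side of 0.05, which no split here can pass. BxPC3 kept the most covered bases in the KRT7, KRT6B-KRT6A-KRT5 and KRT19 windows, and SUIT2 in the KRT8-KRT18 window, in 9 of 9 settings. In the KRT14-KRT16-KRT17 window the leading line was Panc327 in 5 of 9 and BxPC3 at a −log10 q of at least 20, in extended windows, and without BxPC3 replicate 1 or Panc327 replicate 1. SUIT2 stayed at 0 in the KRT6B-KRT6A-KRT5 window in 9 of 9 settings and in the KRT14-KRT16-KRT17 window in 8 of 9. With that window extended by 10 kb it averaged 5.38 kb.

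Region counts moved more. With a cover of at least 50% of the region required of each library, Panc327 marked 8, 2 regions were in all libraries, 2 were of BxPC3 alone, 2 of Panc327 alone and 2 of SUIT2 alone, and 0 were missing from BxPC3 and 3 from SUIT2. In windows extended by 10 kb, SUIT2 marked 16, 11 regions were in all libraries and 3 were of SUIT2 alone. At a −log10 q of at least 20, Panc327 alone marked 2. Leaving out 1 library gave 0 to 4 regions of BxPC3 alone (4 without BxPC3 replicate 1), 4 to 8 of Panc327 alone (8 without its replicate 1, 7 without its replicate 2), 0 to 1 of SUIT2 alone and 0 to 1 missing from Panc327. The causes were not tested, except that after a library is left out its line marks a region with 1 peak list alone.

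By base overlap, the replicate numbers showed no pairing of the libraries. Over the windows, libraries of different lines had a mean Jaccard index of 0.371 with the same number and 0.369 with different numbers (6 pairs each). In both basal windows every pair with SUIT2 of another line has an index of 0, which draws these means together. A shared batch in peak strength or depth was not tested. With the replicate block, for covered length the exact permutation p was 0.333 for KRT7, KRT8-KRT18 and KRT14-KRT16-KRT17 and 0.167 for the others, the smallest it can give. Depth is unknown, and weak signal in SUIT2 under the threshold would not be seen.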

Other observations

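Genome tiles of each window's length were ranked by how closely their covered shares over the 6 libraries matched those of the window, which is a description only. The tile nearest to the KRT6B-KRT6A-KRT5 window, on chromosome 1 from 23100001 to 23210000, was likewise empty in both SUIT2 libraries, with 16.7 and 15.8 kb in BxPC3 and 7.07 and 12.4 kb in Panc327. The nearest tile to the KRT14-KRT16-KRT17 window, on chromosome 19 from 51520001 to 51590000, covered 6.23 and 6.99 kb in BxPC3, 6.43 and 4.96 kb in Panc327 and 0 kb in SUIT2. The nearest to KRT8-KRT18 was on chromosome 17 from 16880001 to 16960000, with 14.8 and 16.3 kb in BxPC3, 15.8 and 17.6 kb in Panc327 and 29.7 and 30.0 kb in SUIT2. For KRT7 it was on chromosome 1 from 151980001 to 152040000, and for KRT19 on chromosome 14 from 23440001 to 23480000.

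The only other stretch without SUIT2 peaks that held at least 13 peaks in each of the other 4 libraries lay on chromosome 1 from 208418810 to 209821802. It was longer than the one around the KRT6B-KRT6A-KRT5 window, 1403 kb, and held 18 and 16 peaks of BxPC3 and 14 and 15 of Panc327.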
